A study of Mus musculus with 2 samples.

Results

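Collagen genes were described here across the stomachs of 2 mice. Members were all genes of the authors' workbook whose symbol has the form of Col, a type number, the letter a and a chain number. With 1 probe set per gene, the rule found 44 genes among 30940 genes with a named probe set. The mouse reference gene table also holds 44 genes named in this way, and each was on the array as 1 probe set. Of these members 37 reached 4.62 on the log2 scale on at least 1 array, which is the median of all probe-set values and served as the floor. The other 7, Col2a1, Col6a6, Col10a1, Col11a1, Col14a1, Col19a1 and Col28a1, were below that level on both arrays, too low to be told from background.

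Collagens are extracellular proteins whose chains carry a glycine at regular intervals and wind around each other in sets to form a helix. Fibrillar types build the ropes of the stroma, type IV builds the sheet beneath epithelia, endothelium and muscle cells, and other types link, coat or anchor these structures. In the stomach wall fibroblasts make most fibrillar collagen, while epithelial, muscle and endothelial cells add chains of the basement membrane.

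The MIST1-LSL mouse carried Atp4bCre, in which the proton pump beta subunit promoter drives Cre recombinase in parietal cells, together with a MIST1-LSL allele, from which Cre permits MIST1 expression. The control mouse carried Atp4bCre alone, so both animals had the Cre transgene. Each mouse was 12 weeks old, of a mixed background crossed back to C57/B6, and gave 1 stomach and 1 Affymetrix array. The labels disagree on the tissue, corpus in the samples and whole stomach in the design text, and the MIST1 allele targets parietal cells, which are not the main makers of collagen.

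Levels are log2 values from RMA, and differences are MIST1-LSL minus control. Each genotype has 1 array, so the differences are without replication and carry no p-value. As a measure of probe behaviour only, probe sets of the same gene differed among themselves with an SD of 0.21 in that difference, over 482 genes. Array medians were 4.60 for MIST1-LSL and 4.64 for control. Bhlha15, the gene of MIST1, read 5.30 on the MIST1-LSL array and 5.26 on the control array, so its probe set did not separate the genotypes. Which part of the transcript these probes cover is not given. MIST1-LSL below therefore means the array so labelled. Atp4a, the catalytic subunit of the parietal proton pump, read 11.43 on the MIST1-LSL array and 11.53 on the control array. Of 9 parietal markers, 6 were below 0, against 53.1% of all genes at or above the floor, and 3 above 0. Their median was -0.0955 and their range -2.49 to 0.22. The lowest, Slc26a7, read 6.97 on the control array and 4.48, below the floor, on the MIST1-LSL array, so its sign was bound to the way it passed.

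The collagen family as a whole differed little between the genotypes, and no member reached a 2-fold difference. Over all 44 members the log2 differences ran from -0.56 to 0.76 with a median of -0.14. Below 0 were 28 members (63.6%), against 50% of the 30940 genes with no floor. Among the 37 members at or above the floor the median was -0.16 and 23 (62.2%) were below 0, against a median of -0.03 and 53.1% below 0 over all 17355 genes at or above the floor. None of the 37 was at least 2-fold higher, where 0.968% of all genes were, and none was at least 2-fold lower, where 0.472% were. At a 1.5-fold size, 2 of 37 members (5.41%) were higher, against 3.49% of all genes, and 0 were lower, against 3.31%. Both higher members, Col8a1 and Col9a1, read below the floor on the control array. Lower by more than the SD between probe sets were 15 of the 37 (40.5%), against 25.8% of all genes. Higher by more than it were 6 (16.2%), against 21.0%. In either direction that is 21 members (56.8%) and 46.8% of all genes, so to exceed this SD was common on these arrays. The share lower by more than this SD was above that of all genes, and the share higher by more than it was below. Some of these members passed the floor on 1 array only. At this many arrays, shifts of the size seen here could not be told from variation between mice. In whole tissue, fewer cells of a type and less RNA per cell cannot be told apart.

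Low levels also limit what the family can show. Of the 37 members, 29 were at or above the floor on both arrays, and 18 of these were below 0, 10 above 0 and 1 at 0. A further 5, Col4a3, Col6a5, Col8a2, Col12a1 and Col15a1, passed through the control array alone, and 3, Col8a1, Col9a1 and Col22a1, passed through the MIST1-LSL array alone, so the direction of these 8 was bound to the way they passed. Among all 10644 genes in the range of mean levels that the collagen genes occupied, the middle 95% of differences lay between -0.65 and 0.66. Only Col8a1 and Col9a1 among the 37 lay outside that interval. The relation of difference to mean level over the 37 genes, which share both arrays, was weak (Pearson r = -0.27, Spearman rho = -0.18).

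**Figure D1:**
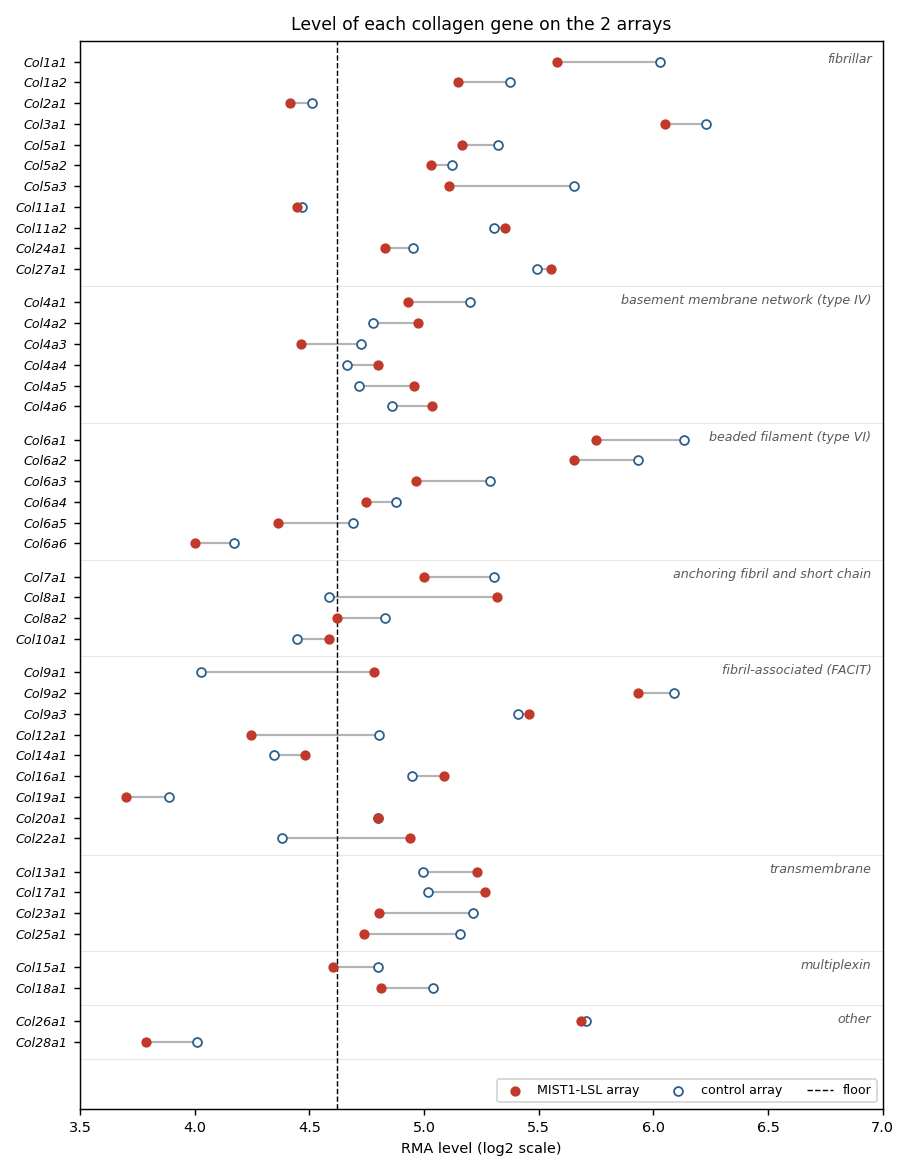
Log2 RMA level (horizontal axis) of each of the 44 collagen genes, grouped by class, with the MIST1-LSL array as filled points, the control array as open points and the floor of 4.62 as a dashed line. All 6 type VI genes read lower on the MIST1-LSL array, and Col8a1, Col9a1 and Col22a1 cross the floor upward.

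**Figure D2:**
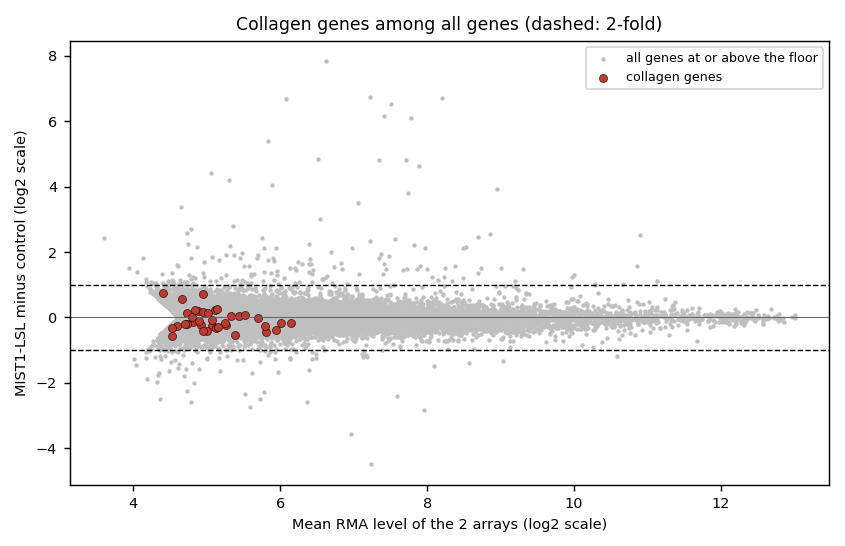
Log2 difference, MIST1-LSL minus control, against the mean log2 level of both arrays for 17355 genes at or above the floor (grey), with the 37 collagen genes in red and the 2-fold size as dashed lines. No collagen gene lies beyond a dashed line.

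Fibrillar collagens, the load-bearing types, read slightly lower on the MIST1-LSL array. Their class median was -0.16 over 9 genes at or above the floor, with 7 below 0. Lower by more than the SD between probe sets were 3 of the 9, where 25.8% of all genes were. Col1a1, the alpha 1 chain of type I collagen, which forms the bulk of stromal fibrils, read 5.58 on the MIST1-LSL array and 6.03 on the control array, 1.37-fold lower. Its partner chain Col1a2 read 5.15 on the MIST1-LSL array and 5.38 on the control array, 1.17-fold lower. Both type I chains were thus lower, and they differed from each other by 0.22, about the spread between probe sets of 1 gene. Col3a1, which forms type III collagen of distensible tissues, read 6.05 on the MIST1-LSL array and 6.23 on the control array, a difference of -0.18.

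Type V collagen, which sits within type I fibrils and sets their diameter, gave differences in the same direction for all 3 chains. Col5a3 read 5.11 on the MIST1-LSL array and 5.65 on the control array, 1.46-fold lower, the largest difference of the class. Col5a1 read 5.16 on the MIST1-LSL array and 5.32 on the control array, and Col5a2 read 5.03 and 5.12 in the same order. Both are smaller than the SD between probe sets. The minor fibrillar genes did not share 1 direction. Col24a1 differed by -0.12 (4.83 on the MIST1-LSL array, 4.95 on the control array), whereas Col27a1 differed by 0.06 (5.55 and 5.49) and Col11a2, a cartilage chain, by 0.05 (5.35 and 5.31). Col2a1, the main collagen of cartilage, read 4.41 on the MIST1-LSL array and 4.51 on the control array, and Col11a1 read 4.44 and 4.47, all below the floor. Acan, the cartilage proteoglycan, read 3.93 on both arrays.

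The promoters of Col1a2 and Col3a1 are shown because these genes encode main fibrillar collagens of the gut wall and both read lower. The windows run from 250 bases before to 50 after the start annotated by RefSeq in build GRCm38.p6, on the + strand at chr6:4505368-4505667 for Col1a2 and at chr1:45311288-45311587 for Col3a1. Capitals mark the CCAAT box (CCAAT), the TATA box (TATAAA) and the GC box (GGGCGG), searched on both strands (a match on the other strand shows its reverse complement), and no printed match overlaps another.
Col1a2: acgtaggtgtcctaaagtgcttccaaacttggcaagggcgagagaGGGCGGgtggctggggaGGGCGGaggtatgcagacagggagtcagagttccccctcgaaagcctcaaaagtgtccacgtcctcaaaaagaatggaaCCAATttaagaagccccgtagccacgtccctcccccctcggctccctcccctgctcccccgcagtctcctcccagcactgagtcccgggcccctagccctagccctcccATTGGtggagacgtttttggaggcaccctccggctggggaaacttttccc
Col3a1: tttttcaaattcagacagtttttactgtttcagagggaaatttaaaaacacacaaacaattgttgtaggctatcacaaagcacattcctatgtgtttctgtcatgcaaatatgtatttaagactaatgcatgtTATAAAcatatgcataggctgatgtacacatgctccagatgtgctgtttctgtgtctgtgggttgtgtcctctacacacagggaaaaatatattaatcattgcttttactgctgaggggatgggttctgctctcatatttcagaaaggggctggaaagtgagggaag
The Col1a2 window holds 2 CCAAT and 2 GC box matches, and that of Col3a1 holds 1 TATA box match, with its first base at position -117 from the start. The windows of these genes shared no match to any of the 3 motifs. RefSeq windows were given for 35 of the 44 collagen genes, 38 windows in all. A GC box match stood in 60.5% of collagen windows, against 35.7% of all 32851 promoter windows, with a median G+C content of 59.8% in collagen windows and 52.7% in all windows. CCAAT matches stood in 34.2% of collagen windows and 37.4% of all windows, and TATA matches in 13.2% and 13.6%. These matches are descriptions of letters, not of bound sites.

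Type IV collagen, the network of basement membranes, was split by chain. Its class median was 0.15 over 6 genes, all at or above the floor, with 4 above 0 and 2 below 0. By more than the SD between probe sets, 2 were lower, where 25.8% of all genes were, and 1 was higher, where 21.0% were. The other 3, Col4a2, Col4a4 and Col4a6, lay within that SD. Col4a1, which with Col4a2 makes the network present in nearly all basement membranes, read 4.93 on the MIST1-LSL array and 5.20 on the control array, 1.21-fold lower. Col4a2 read 4.97 on the MIST1-LSL array and 4.78 on the control array, 1.15-fold higher. The partner chains thus had opposite signs and differed from each other by 0.47, although the Col4a2 difference was smaller than the SD between probe sets.

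Col4a1 and Col4a2 are transcribed in opposite directions from starts so close that the annotated first bases of the transcripts overlap, so their promoters are shown as a pair. The Col4a1 window lies at chr8:11312777-11313076 on the - strand and the Col4a2 window at chr8:11312555-11312854 on the + strand of GRCm38.p6, from RefSeq, and they overlap by 78 bases. Capitals mark the same motifs as above.
Col4a1: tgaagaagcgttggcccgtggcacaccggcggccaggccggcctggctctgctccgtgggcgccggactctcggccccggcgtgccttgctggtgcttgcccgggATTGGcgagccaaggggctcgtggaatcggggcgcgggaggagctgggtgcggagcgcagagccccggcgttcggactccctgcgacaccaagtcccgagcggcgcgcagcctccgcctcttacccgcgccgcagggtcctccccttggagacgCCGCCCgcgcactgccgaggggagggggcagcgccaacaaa
Col4a2: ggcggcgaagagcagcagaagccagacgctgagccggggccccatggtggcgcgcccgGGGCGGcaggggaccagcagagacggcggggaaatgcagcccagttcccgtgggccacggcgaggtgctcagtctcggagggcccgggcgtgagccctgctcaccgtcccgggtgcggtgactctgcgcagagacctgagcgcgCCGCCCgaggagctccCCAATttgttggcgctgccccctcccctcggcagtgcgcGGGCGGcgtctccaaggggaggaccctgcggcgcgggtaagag
Each window holds 1 CCAAT match, while GC box matches number 1 in the Col4a1 window and 3 in the Col4a2 window. G+C content was 74.0% for Col4a1 and 73.7% for Col4a2. In the shared bases, what lies upstream of one start lies downstream of the other, and no base is upstream of both.

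The other type IV pairs also neighbour each other in the genome with no protein-coding gene between them. Col4a3 and Col4a4, chains of the specialised network of kidney, lung and inner ear, were again opposite in sign. Col4a3 read 4.46 on the MIST1-LSL array and 4.72 on the control array, and Col4a4 read 4.80 on the MIST1-LSL array and 4.66 on the control array. Both stood close to the floor, and Col4a3 passed it through the control array alone, so its sign was bound to that. Col4a5 and Col4a6, which form a network found beneath smooth muscle and some epithelia, were both higher. Col4a5 read 4.96 on the MIST1-LSL array and 4.72 on the control array, 1.18-fold higher. Col4a6 read 5.04 on the MIST1-LSL array and 4.86 on the control array, 1.13-fold higher. This was the only type IV pair with the same sign for both chains.

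Type VI collagen, which forms beaded filaments around cells, had the lowest class median of the family and no member above 0. The median was -0.32 over 5 genes at or above the floor, and all 6 genes, the low Col6a6 included, were below 0. Col6a1 read 5.75 on the MIST1-LSL array and 6.13 on the control array, 1.31-fold lower. Col6a2 read 5.65 on the MIST1-LSL array and 5.93 on the control array, 1.21-fold lower. Col6a3, the chain that completes the usual type VI molecule, read 4.96 on the MIST1-LSL array and 5.29 on the control array, 1.25-fold lower. These partner chains differed from each other by at most 0.11, less than the SD between probe sets. Lower by more than that SD were 4 of the 5 type VI genes at or above the floor, where 25.8% of all genes were. The 5 share both arrays. Among the 4, Col6a5 passed the floor through the control array alone, so its sign was bound to that.

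Col6a4, Col6a5 and Col6a6 encode chains that can stand in for alpha 3 and lie side by side in the mouse genome. Col6a5 read 4.36 on the MIST1-LSL array and 4.69 on the control array, which places only the control value above the floor. Col6a4 read 4.75 on the MIST1-LSL array and 4.88 on the control array, and Col6a6 read 4.0 and 4.17 in the same order. All 3 pointed the same way at low levels. Among all genes at or above the floor, 10.5% had a lower difference than Col6a1 and 35.1% a lower one than Col6a4, so the single type VI values lay inside the bulk of the array.

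Among fibril-associated collagens, which coat fibrils and have interrupted helices, members went both ways. The class median was 0.05 over 7 genes, with 4 above 0, 2 below 0 and Col20a1 at 4.80 on both arrays. Col9a1, a chain of type IX collagen that decorates cartilage fibrils, read 4.78 on the MIST1-LSL array and 4.03 on the control array. The control level is below the floor, so the difference of 0.76 is not a measured fold, and its sign was bound to the way the gene passed. Its partner chains did not follow it in size. Col9a2 read 5.93 on the MIST1-LSL array and 6.09 on the control array, and Col9a3 read 5.46 on the MIST1-LSL array and 5.41 on the control array. Col19a1, the genome neighbour of Col9a1, read 3.70 on the MIST1-LSL array and 3.89 on the control array, below the floor on both.

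Col12a1, which binds type I fibrils in dense connective tissue, read 4.24 on the MIST1-LSL array, below the floor, and 4.80 on the control array. It passed through the control array alone, so the sign of its difference of -0.56 was bound to that. The related Col14a1 read 4.48 on the MIST1-LSL array and 4.35 on the control array, both below the floor. These relatives on the same kind of fibril did not point the same way. Col22a1, known from junctions between muscle and tendon, read 4.94 on the MIST1-LSL array and 4.38, below the floor, on the control array, a difference of 0.56 with the same limit. Col16a1 read 5.09 on the MIST1-LSL array and 4.95 on the control array, a difference of 0.14.

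Type VIII collagen, a short-chain type that forms lattices in vessels and the eye, had chains that each passed the floor on 1 array. Col8a1 read 5.32 on the MIST1-LSL array and 4.59, below the floor, on the control array, a difference of 0.73. Col8a2 read 4.62 on the MIST1-LSL array, just under the floor, and 4.83 on the control array, a difference of -0.21. Since Col8a1 passed through the MIST1-LSL array alone and Col8a2 through the control array alone, their opposite signs were bound to the filter. Col10a1, the short-chain collagen of growth plate cartilage, read 4.59 on the MIST1-LSL array and 4.45 on the control array, both below the floor.

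The Col8a1 promoter is shown because this gene and Col9a1 were the members past the 1.5-fold size, each against a control level below the floor. The window lies at chr16:57754688-57754987 on the - strand of GRCm38.p6, from RefSeq, with motif matches in capitals.
Col8a1: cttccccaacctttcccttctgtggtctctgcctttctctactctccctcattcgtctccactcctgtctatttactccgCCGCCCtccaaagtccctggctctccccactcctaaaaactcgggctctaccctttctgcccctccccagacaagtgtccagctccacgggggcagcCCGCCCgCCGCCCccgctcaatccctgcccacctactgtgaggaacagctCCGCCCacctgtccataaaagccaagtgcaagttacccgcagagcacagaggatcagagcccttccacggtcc
It holds 4 GC box matches and no CCAAT or TATAAA match.

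Collagens that tie epithelium to its base were also split. Col7a1, the anchoring fibril collagen beneath squamous epithelium, read 5.0 on the MIST1-LSL array and 5.30 on the control array, 1.24-fold lower. Col17a1, a transmembrane collagen of hemidesmosomes in basal keratinocytes, read 5.27 on the MIST1-LSL array and 5.02 on the control array, 1.19-fold higher. Krt5, a keratin of the same basal cells, read 6.75 on the MIST1-LSL array and 6.54 on the control array. Of 9 squamous forestomach markers, 6 were above 0, where 7788 of all 17355 genes at or above the floor were. The list median was 0.20, and the largest difference in the list was that of Krt15, a basal keratin, at 0.90. The part of squamous tissue content in the 2 collagen values was not tested.

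The remaining transmembrane collagens were Col13a1, Col23a1 and Col25a1. Col13a1, found at cell junctions and the neuromuscular synapse, read 5.23 on the MIST1-LSL array and 4.99 on the control array, 1.18-fold higher. Col23a1 read 4.81 on the MIST1-LSL array and 5.21 on the control array, 1.33-fold lower. Col25a1, a neuronal collagen, read 4.74 on the MIST1-LSL array and 5.16 on the control array, 1.34-fold lower. With Col17a1 the class thus held 2 higher and 2 lower genes, each by more than the SD between probe sets, as were 46.8% of all genes, and a median of -0.09.

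The multiplexins Col15a1 and Col18a1, basement membrane collagens that release antiangiogenic fragments, were both lower. Col18a1, the source of endostatin, read 4.81 on the MIST1-LSL array and 5.04 on the control array, 1.17-fold lower. Col15a1 read 4.60, just under the floor, on the MIST1-LSL array and 4.80 on the control array, a difference of -0.19. The Col18a1 difference was just above the SD between probe sets and that of Col15a1 just below it. Col26a1 stood at 5.69 on the MIST1-LSL array and 5.71 on the control array, and Col28a1, a collagen of peripheral nerve, was below the floor at 3.79 and 4.01 in the same order.

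Set against the way chains assemble, 8 of 14 partner pairs had the same sign and 6 had opposite signs. Genome position gave a like picture, as 5 of 8 pairs of adjacent collagen genes had the same sign and 3 had not. Pairs share chains and both arrays, so they are not independent of each other. In pairs that hold Col4a3, Col6a5, Col8a1, Col8a2 or Col9a1, the sign of that chain was bound to the way it passed the floor. Col6a6, Col11a1 and Col19a1, which also stand in counted pairs, were below the floor on both arrays. Every compared pair of type I, type V and type VI chains had the same direction, as did Col4a5 with Col4a6 and Col9a1 with Col9a3.

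**Figure D3:**
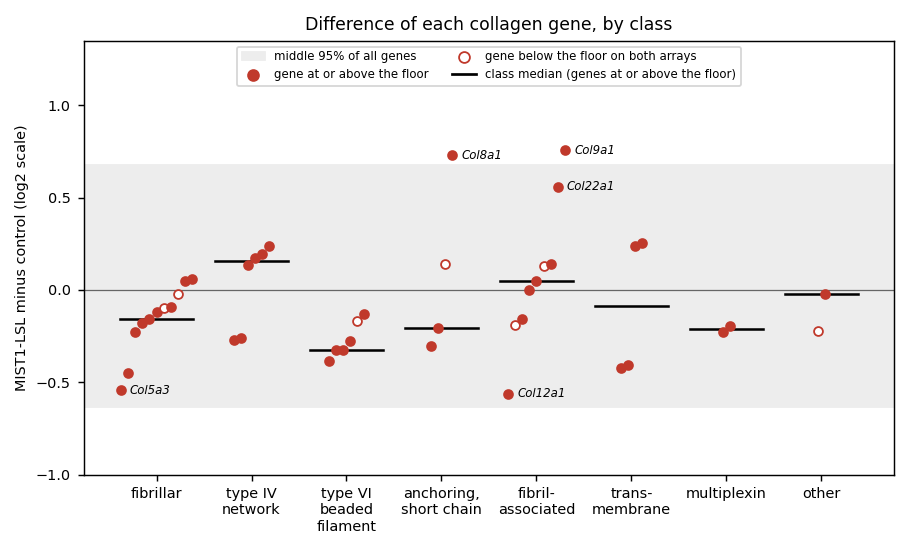
Log2 difference, MIST1-LSL minus control (vertical axis), of each collagen gene by class; filled points are genes at or above the floor, open points genes below it on both arrays, black bars class medians, and the grey band the middle 95% of all genes (-0.63 to 0.68). Type VI lies wholly below 0, and Col8a1 and Col9a1 lie above the band.

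Genes that fold and modify collagen chains in the endoplasmic reticulum lay close to 0. The counts below 0 in this and the following lists stand against 53.1% of all genes at or above the floor, whose median was -0.03. Of 21 listed genes 19 were at or above the floor, 13 of them below 0 and 5 above 0, with a median of -0.07 and none at a 2-fold difference. Among the 5 was Plod1, named after its value was seen. Plod1 passed the floor through the MIST1-LSL array alone, so its sign was bound to that. P4ha1, a catalytic subunit of prolyl 4-hydroxylase, read 5.34 on the MIST1-LSL array and 5.84 on the control array. Crtap, a subunit of the prolyl 3-hydroxylase complex, differed by -0.41 and Creb3l1, a transcription factor that drives type I collagen in bone, by -0.35, while P3h2, a prolyl 3-hydroxylase acting on type IV collagen, differed by 0.38. Serpinh1, the collagen chaperone, differed by -0.20 and P4hb, the shared subunit of prolyl 4-hydroxylase, by 0.21.

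Processing and crosslinking genes were mixed, with 6 of the 10 at or above the floor, out of 16 listed, below 0, a median of -0.06 and none at a 2-fold difference. Among the 6 was Pxdn, named after its value was seen. Pxdn passed the floor through the control array alone, so its sign was bound to that. The lysyl oxidase relatives Loxl4 and Loxl3 differed by 0.45 and -0.40. Adamts14, a procollagen N-proteinase, differed by 0.37 and Pcolce, which speeds removal of the C-propeptide, by 0.26. Among 16 genes of collagen degradation, 9 were at or above the floor and 8 of these were below 0, with a median of -0.12. Of the 7 below the floor, the collagenase gene Mmp1a and the cathepsin gene Ctsk, named after their values were seen, were above 0, at 0.41 and 0.38. Mmp2, a gelatinase, read 4.78 on the MIST1-LSL array and 5.39 on the control array, 1.52-fold lower. The protease inhibitor genes Timp3 and Timp1 differed by -0.41 and 0.30, and Mrc2, a collagen uptake receptor, by -0.18. Timp1 read below the floor on the control array, so its sign was bound to the way it passed.

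The collagen-binding integrin genes Itga1 and Itga2 differed in opposite directions. Itga1, typical of smooth muscle and stromal cells, read 6.38 on the MIST1-LSL array and 5.54 on the control array, 1.80-fold higher. Itga2, typical of epithelia and platelets, read 4.94 on the MIST1-LSL array and 5.93 on the control array, 1.99-fold lower. The receptors Itga11 and Ddr1 each differed by -0.20. Itga11 read just under the floor on the MIST1-LSL array, so its sign was bound to the way it passed. Of 7 receptor genes at or above the floor, out of 10 listed, 6 were below 0, the median was -0.09 and none reached a 2-fold difference.

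Partners of type IV collagen in the basement membrane were lower in each member at or above the floor. All 14 genes at or above the floor were below 0, where 53.1% of all genes were, with a median of -0.29 and a range from -0.91 to -0.05, and none was 2-fold lower. Both remaining listed genes were below the floor on each array, and one of them, the laminin chain Lama1, named after its value was seen, was above 0 at 0.32. Among the 14, the laminin chain Lama2, also named after its value was seen, read 4.61 on the MIST1-LSL array, just under the floor. It read 4.74 on the control array, so its sign was bound to the way it passed. Lama4, a laminin chain of vessels and muscle, read 4.87 on the MIST1-LSL array and 5.78 on the control array, 1.88-fold lower. Npnt, an integrin ligand of basement membranes, differed by -0.56, and Lamc1, the laminin gamma 1 chain, and Nid2, which links laminin to type IV collagen, by -0.47 each. The difference between these partners and the type IV genes was not tested, since 1 array per genotype allows none.

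Among proteins that bind collagen fibrils, 1 gene was over 2-fold up and 1 over 2-fold down in the MIST1-LSL stomach. Over all genes at or above the floor, the share this far up was 0.968% and the share this far down 0.472%. The median of the fibril-binding genes was -0.13 over 18 of 20 listed genes, 13 of them below 0 and 5 above 0. Among the 13, Tnxb and Thbs1 passed the floor through the control array alone. Among the 5, Thbs2 passed it through the MIST1-LSL array alone. The signs of Tnxb, Thbs1 and Thbs2, named after their values were seen, were bound to the way they passed. Aspn, a small leucine-rich proteoglycan, read 7.20 on the MIST1-LSL array and 5.57 on the control array, 3.09-fold higher. Postn, periostin, which aids collagen crosslinking, was 2.22-fold lower. Dcn, decorin, and Dpt, dermatopontin, both of which regulate fibril assembly, differed by -0.83 and -0.55.

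Markers of cells that can make collagen differed in both directions. Of 10 fibroblast markers at or above the floor, 6 were below 0, with a median of -0.09, and Pdgfra differed by -0.47. Among the 6, Foxf1 passed the floor through the control array alone, so its sign was bound to that. The summed linear intensity of all 12 fibroblast markers was 1232 on the MIST1-LSL array and 1448 on the control array. Both sums were mostly Ly6a, named after its value was seen, at log2 levels of 9.62 and 9.94 in the same order. All 10 smooth muscle markers were above 0, where 7788 of all 17355 genes at or above the floor were. The median of these markers was 1.23, and their summed intensity was 3901 on the MIST1-LSL array and 1562 on the control array. Acta2, smooth muscle actin, was 2.99-fold higher and Myh11, smooth muscle myosin, 2.23-fold higher.

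Markers of further cell types also differed in both directions. Of 6 mesothelial markers 5 were below 0, with a median of -0.34 and summed intensities of 999.2 on the MIST1-LSL array and 1053 on the control array. Among the 5, Lrrn4 passed the floor through the control array alone, so its sign was bound to that. The mesothelial sums were mostly Krt19, the marker above 0, at log2 levels of 9.61 and 9.58 in the same order. Krt19 was named after its value was seen. Of 6 adipocyte markers at or above the floor 5 were below 0, with a median of -0.61 and summed intensities of 1133 on the MIST1-LSL array and 2003 on the control array over all 8, and Adipoq was below the floor on both. Cfd, the lowest, passed the floor through the control array alone, so its sign was bound to that. Without the floor the adipocyte median was -0.38. The adipocyte sums were mostly Fabp4, at log2 levels of 9.81 on the MIST1-LSL array and 10.70 on the control array. Endothelial markers had a median of -0.03 over 6 genes and glial markers one of 0.21 over 7 genes, with summed intensities of 219.3 and 340.4 on the MIST1-LSL array and 215.0 and 341.8 on the control array. The glial marker S100b passed the floor through the MIST1-LSL array alone, so its sign was bound to that. Pancreatic acinar markers, led by the lipase gene Pnlip, had a median of 4.82, with 10 of 11 at least 2-fold higher, where 0.968% of all genes were. Among them Pnlip, Prss2, Cpb1 and Cela3b read below the floor on the control array, so their signs were bound to the way they passed. The acinar markers had summed intensities of 19203 on the MIST1-LSL array and 6521 on the control array. The control sum was mostly Clps, at a log2 level of 12.41 on that array. Cela3b and Clps were named after their values were seen. The part of the acinar markers in the collagen values was not tested.

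**Figure D4:**
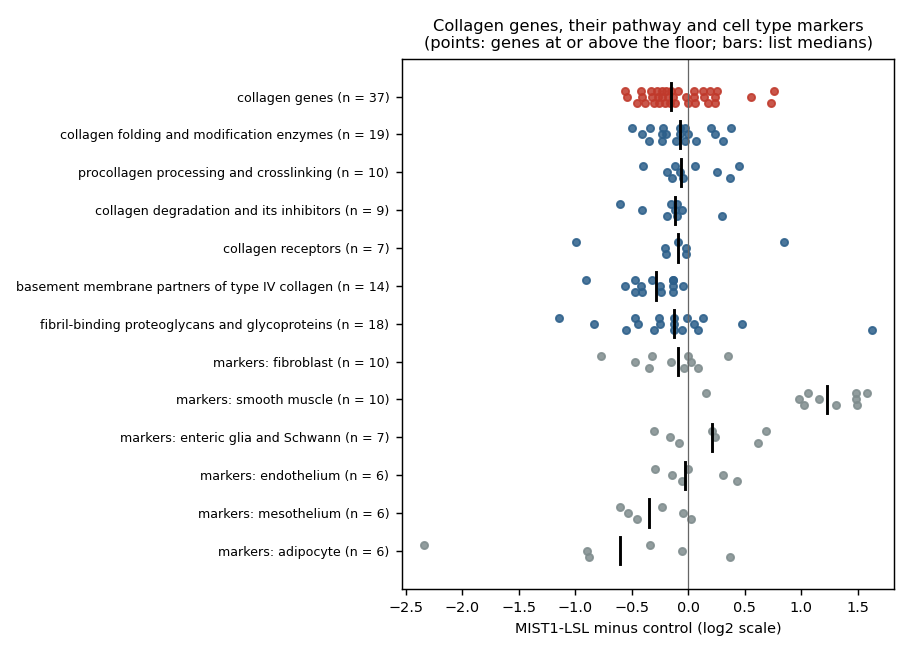
Log2 difference, MIST1-LSL minus control (horizontal axis), of genes at or above the floor in the collagen family (red), 6 lists of the collagen pathway (blue) and 6 lists of cell markers (grey), with list medians as black bars. The collagen median is -0.16, the 14 basement membrane partners at or above the floor all lie below 0, and all 10 smooth muscle markers lie above it. The sign of the partner Lama2 was bound to the way it passed the floor.

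The authors' deposited tables of gene ontology enrichment also cover collagen terms, for gene lists whose direction is not stated. In the first list, the authors' deposited table gives 22 of the 82 genes of the term collagen trimer (26.8%, p = 0.0683), against 19.6% of all 22423 genes. In the second list, the authors' deposited table gives 12 of the 82 (14.6%, p = 0.933), against 20.5% of all genes. For fibrillar collagen trimer the authors' deposited table gives 2 of 12 genes in the first list (16.7%, p = 0.713). For collagen fibril organization the authors' deposited tables give 5 of 37 genes in the first list (13.5%, p = 0.876) and 6 in the second (16.2%, p = 0.80). For the type IV trimer the authors' deposited tables give 2 of 6 genes in the first list (p = 0.334) and 1 in the second (p = 0.748). For the FACIT collagen trimer the authors' deposited tables give 1 of 4 genes in each list (p = 0.582 in the first and 0.601 in the second). For procollagen-proline dioxygenase activity the authors' deposited tables give 12 of 37 genes in the first list (p = 0.0447) and 3 in the second (p = 0.989). For the term extracellular matrix the authors' deposited tables give 94 of 360 genes in the first list (p = 0.00141) and 67 in the second (p = 0.835). For the term basement membrane the authors' deposited tables give 27 of 97 genes in the first list (p = 0.0309) and 14 in the second (p = 0.952). The terms hold many genes outside the collagen family, and the test behind these p-values is not given.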

How the data were processed

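Total RNA of each stomach was amplified, biotin-labelled and hybridised, per the labels' protocols; amplification can change relative levels. The submitters' processing notes name RMA and Partek; no settings, build or annotation release are named. The authors deposited log2 levels of 41345 probe sets, the linear intensity of each level and their ratio, and gene ontology tables with a score and a p-value per term for gene lists of unstated direction.

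Gene names came from the workbook and were updated through the RefSeq table of GRCm38.p6 (21705 probe sets by accession, 2575 by gene identifier, 4091 by symbol; 4056 kept the file's name; 8874 had no gene). Collagen genes kept the workbook's symbol. The probe set with the highest mean was used per gene. The members and lists were chosen with earlier results of these data known. Every member could be named, and otherwise up to 4 genes of a list with the largest difference, the targeted gene, defining markers, Serpinh1 and P4hb. The procedure was tested on simulated data. There was no replicate and no test between genotypes, and the number of arrays limits precision. Alternatives were other scalings, floors, probe-set rules and size rules. Analyses used Python 3.11.15, numpy 2.4.6, pandas 2.3.3, scipy 1.17.1, statsmodels 0.14.6 and matplotlib 3.10.9.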

Additional observations from a re-analysis of the deposited data

How the results depend on the processing

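The median difference of the collagen genes stayed below 0 under every alternative, between -0.28 and -0.12. The probe-set rules and size rules could not move this median. Under a floor set to the 75th percentile (5.84), the number of members below 0 was 5, because only 5 members were left, and the median of the processing and crosslinking genes was 0.26, over fewer genes. With a 1.5-fold size rule, 2 members counted as higher. Other class and pathway medians moved by less than the probe-set SD, although under the higher floor the fibril-associated median was -0.16, against 0.05 in the report. Quantile normalization, median centring and loess (span 0.3) each left 22 of 37 members below 0, where 50.3%, 48.0% and 49.2% of all genes were. Single collagen genes moved by at most 0.04 under 7 settings of scaling or probe sets, and 3 (Col11a1 at -0.02, Col26a1 at -0.02 and Col20a1 at 0) changed sign. Averaging probe sets, or taking the one with the largest difference, could not change a member, because each has 1. Nor could a rule of at least 10 probes, since the member with the fewest, Col23a1, has 14. No paired analysis was possible because each genotype has 1 array, and no replicate could be left out. The higher floor left no gene of type IV, anchoring and short chain, transmembrane, multiplexin or other collagens, so these gave no value. Levels near the floor limit 8 of the 37 members, which passed it on 1 array only.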

Other observations

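Proteins outside the family that carry a collagen-like domain were listed after the collagen values had been seen. Of 26 such genes 16 were at or above the floor, 10 of them below 0 and 5 above 0, with a median of -0.14, and none was 2-fold different. Gldn, gliomedin of peripheral nerve, read 4.36 on the MIST1-LSL array and 5.12 on the control array. C1qc, a complement chain, read 5.23 on the MIST1-LSL array and 5.87 on the control array. The macrophage receptor gene Marco read 4.50 on the MIST1-LSL array and 5.13 on the control array. Gldn and Marco, and Colq among the 10, passed the floor through the control array alone, so their signs were bound to that. On the other side, C1qtnf1, a secreted relative of adiponectin, read 5.36 on the MIST1-LSL array and 4.72 on the control array, and Emid1, an elastin microfibril interface domain protein, read 5.33 on the MIST1-LSL array and 4.73 on the control array. Cthrc1, a secreted protein of wound fibroblasts, read 5.72 on the MIST1-LSL array and 5.49 on the control array.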
